A study of Mus musculus with 4 samples.

Results

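Meg3, Rian and Mirg are noncoding RNA genes that lie one after another on the plus strand of mouse chromosome 12. They belong to the Dlk1-Dio3 imprinted domain, in which one parental chromosome makes the noncoding RNAs and the other makes the proteins. Meg3 is a spliced long noncoding RNA made from the maternal chromosome. Rian carries box C/D small nucleolar RNAs in its introns, and Mirg carries a large group of microRNA precursors. A poly(A) tail is added where the cleavage machinery cuts the nascent RNA, usually a short way after the signal AATAAA (in DNA letters). CstF64, a subunit of the cleavage stimulation factor, binds U- and GU-rich RNA just past the cut.

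The genes were taken as 3 fixed windows of the mm9 build on the plus strand: Meg3 from 110779000 to 110811000, Rian from 110842000 to 110900000 and Mirg from 110970000 to 110990000. They held 38 of the 315205 cleavage positions mapped in the series and no CstF64 alignment. The positions come from 3'READS, which captures poly(A)-bearing RNA fragments on beads and sequences them to the cleavage point. The RNA, bought as a pool of 11 lines of mouse cells that the labels do not name, was captured either with the CU5T45 oligo or with oligo(dT)10-25. CU5T45 is a stretch of 5 U and 45 T, used with a low-salt wash and release by RNase H, while oligo(dT)10-25 is the shorter oligo of regular poly(A) selection. Each oligo had 1 library, of 6738355 reads with CU5T45 and 3482826 reads with oligo(dT)10-25. CstF64 crosslinking (CLIP-seq) used proliferating C2C12 myoblasts, with 2 replicates of 1101047 and 1352122 distinct alignments. The replicates differed by less than sampling noise and were counted as 1 sample. With a single library for each oligo, replicate error is unknown, and each difference below is one between libraries and not between capture methods in general. Intervals are exact 95% intervals. No molecular identifiers are described for the reads, so intervals and floors cover counting error only. In a pool of lines, fewer cells that make an RNA and less RNA per cell cannot be told apart. The labelled cell types were not checked against marker genes, because no annotation of this build was used.

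The sites that the results turn on are shown as the 40 bases up to and including the cleavage position, followed by up to 20 bases after it, where an exon holds them. The letters are those of GENCODE M21 transcripts of Meg3 and Mirg. They were placed by distance from the 3′ end of Meg3, and no coordinate was carried between builds. Capitals mark AATAAA or ATTAAA before the cut and runs of 7 or more A on either side. The first set holds the last sites of Meg3 and Mirg and a Meg3 site about 3 kb before the end that also follows an AATAAA.
Meg3 last site, 110809935: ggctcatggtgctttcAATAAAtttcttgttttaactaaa
Meg3 site 110806796: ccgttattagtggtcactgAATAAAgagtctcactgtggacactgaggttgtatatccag
Mirg last site, 110987667: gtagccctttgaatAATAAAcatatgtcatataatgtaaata
The second set holds Meg3 positions found with oligo(dT)10-25 alone. The A runs differ from the tail in that the gene itself encodes them, and the first 3 of the positions lie beside one.
Meg3 site 110799921: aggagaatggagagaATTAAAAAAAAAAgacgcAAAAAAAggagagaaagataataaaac
Meg3 site 110801488: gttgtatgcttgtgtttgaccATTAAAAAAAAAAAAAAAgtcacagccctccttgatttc
Meg3 site 110805102: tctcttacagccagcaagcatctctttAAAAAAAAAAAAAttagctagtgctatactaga
Meg3 site 110803772: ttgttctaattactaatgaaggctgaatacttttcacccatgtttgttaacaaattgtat

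Meg3 was captured at a low level, and Rian and Mirg at the edge of detection. Meg3 had 59 reads with CU5T45 and 31 with oligo(dT)10-25. Scaled to 1000000 reads of each library (CPM) that was 8.76 CPM (6.67 to 11.3) with CU5T45 and 8.90 CPM (6.05 to 12.6) with oligo(dT)10-25. Mirg had 5 reads with CU5T45 and 2 with oligo(dT)10-25, or 0.742 CPM (0.241 to 1.73) and 0.574 CPM (0.0695 to 2.07). Rian had 4 reads with CU5T45 and 2 with oligo(dT)10-25, or 0.594 CPM (0.162 to 1.52) and 0.574 CPM (0.0695 to 2.07). The Meg3 level lay above those of Rian and Mirg in both libraries, with intervals that did not overlap. Rian and Mirg could not be told apart at this depth. A 3'READS read is meant to mark the end of an RNA, so the reads were not divided by length. The windows measure 32 kb for Meg3, 58 kb for Rian and 20 kb for Mirg. Per kb of window, Meg3 had 1.84 reads with CU5T45 and 0.969 with oligo(dT)10-25, Mirg 0.25 and 0.1, and Rian 0.069 and 0.0345. These counts per kb are not scaled to the library totals, so they compare genes within a library and not the oligos.

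**Figure D1:**
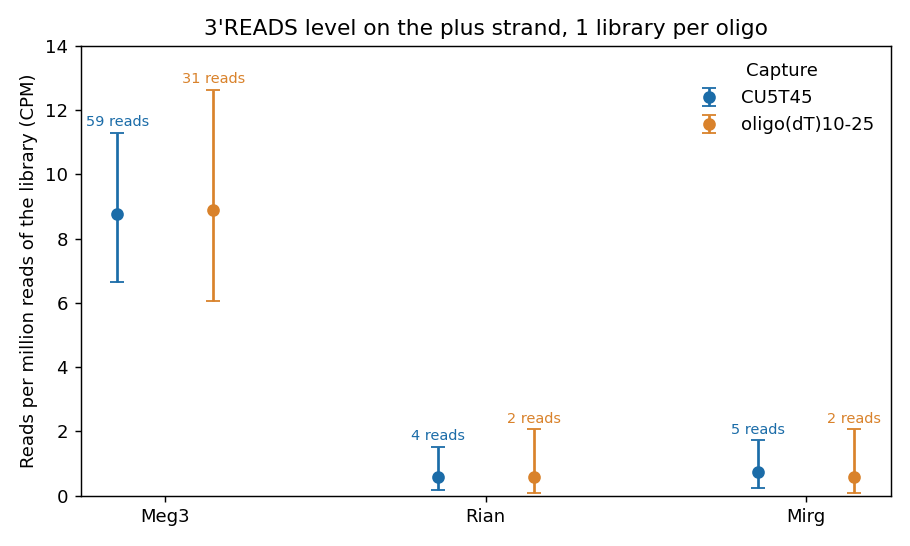
Level of each gene on the plus strand, in CPM, with CU5T45 left of oligo(dT)10-25; points are single libraries, bars are exact Poisson 95% intervals, and the read count stands above each bar. Meg3 stands at 8.76 and 8.90 CPM, while Rian and Mirg lie below 1 CPM with both oligos.

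Meg3 gave 86.8% of the reads of the 3 genes with CU5T45 (76.4 to 93.8; 59 of 68) and 88.6% with oligo(dT)10-25 (73.3 to 96.8; 31 of 35). The minus strand of all 3 windows held 0 reads in both libraries. Where no read was found, up to 3 reads remain possible, which would be 0.445 CPM with CU5T45 and 0.861 CPM with oligo(dT)10-25. The single levels of Rian and Mirg are thus close to what a count of 0 allows, and Rian with oligo(dT)10-25 and Mirg with oligo(dT)10-25 lie under it. The plus strand between the genes was nearly empty too, with 2 CU5T45 reads between Meg3 and Rian, 2 between Rian and Mirg, and 0 oligo(dT)10-25 reads in either stretch. On the minus strand there, the largest site was at 110827402 between Meg3 and Rian, with 0 CU5T45 and 2 oligo(dT)10-25 reads. Between Rian and Mirg it was at 110939698, with 0 and 1 read.

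The first question is how much of each RNA either oligo captured. For none of the 3 genes did the libraries differ beyond counting error. The share of CU5T45 reads over that of oligo(dT)10-25 reads was 0.984 for Meg3 (0.627 to 1.57), 1.29 for Mirg (0.212 to 13.6) and 1.03 for Rian (0.148 to 11.4). The Meg3 interval leaves room for a CU5T45 share of 0.627 to 1.57 times the oligo(dT)10-25 share. For Rian and Mirg it leaves room for more than 10 times, so these 2 genes say little about capture. Over all nuclear clusters of 30 or more reads the median of this ratio was 1.08 (0.11 on the log2 scale). Set against that median, Meg3 stood at 0.910 (0.580 to 1.45), Mirg at 1.20 and Rian at 0.957.

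Reads were also grouped into clusters, chained while neighbouring positions lay at most 24 nt apart. Meg3 had 20 clusters, of which 9 had 3 or more reads, 2 had 10 or more and 0 had 30. No cluster of the 3 genes therefore reached the 30 reads set for calling a 2-fold difference. Of all clusters in the series that did, 25.2% were called (4209 of 16684), 11.1% as higher and 14.1% as lower with CU5T45. With a minimum of 10 reads, 0 of the 2 Meg3 clusters were called, against 22.1% of all clusters, 8.39% as higher and 13.7% as lower with CU5T45. A pair of clusters is too few to set against that share.

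The identity of the windows was checked by distance, since the annotation at hand is of another build. In the files, the last Meg3 site and the last Mirg site lay 177732 nt apart. In GENCODE M21 the annotated transcript ends of both genes lie 177729 to 177741 nt apart, over 4 Meg3 transcripts and 7 Mirg transcripts. The last Meg3 site was itself set equal to the annotated end of the gene, so its match is no check. The Mirg site then fell on the annotated end of the transcript Mirg-202. The position 110797398 in the largest Meg3 cluster fell on that of the short transcript Meg3-201, 12537 nt before the last site, and the most used position 110797400 lay 2 nt after it. In that annotation Meg3 (ENSMUSG00000021268.17) spans 30726 nt with 11 transcripts, Rian (ENSMUSG00000097451.10) 57777 nt with 20, and Mirg (ENSMUSG00000097391.8) 19697 nt with 12. By the same measure the Meg3 window starts 210 nt before the annotated gene and the Rian window 149 nt before it. The Mirg window starts 2027 nt inside the annotated gene, and 1 CU5T45 read at 110969565 lies in the part it leaves out.

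Meg3 reads lay at many places in the long last exon, and not at the annotated end of the gene alone. In the transcript Meg3-209 this exon measures 13087 nt, and by distance it holds 31 of the 32 Meg3 positions. The other position, with 1 CU5T45 read, lies 3 nt past the annotated end. The last site, at 110809935, is preceded by an AATAAA that begins 23 nt before the cut. It had 6 reads with CU5T45 and 6 with oligo(dT)10-25, and its cluster 8 and 6 reads. That is 13.6% of the Meg3 reads with CU5T45 (6.04 to 25.0) and 19.4% with oligo(dT)10-25 (7.45 to 37.5).

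The largest cluster was the one at the end of Meg3-201, from 110797392 to 110797400. It had 19 CU5T45 and 4 oligo(dT)10-25 reads, or 32.2% of the Meg3 reads with CU5T45 (20.6 to 45.6) and 12.9% with oligo(dT)10-25 (3.63 to 29.8). With each position counted in place of its reads, the CU5T45 share was 14.3% (3 of 21 positions). The ratio of its shares of each library was 2.46, with an interval of 0.816 to 9.92 that includes 1. Its 2 main positions were 110797398, with 7 CU5T45 and 2 oligo(dT)10-25 reads, and 110797400, with 11 and 2. In the series, 18612 of the 56206 clusters of 3 or more reads (33.1%), mitochondrial ones included, had more reads than this one.

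**Figure D2:**
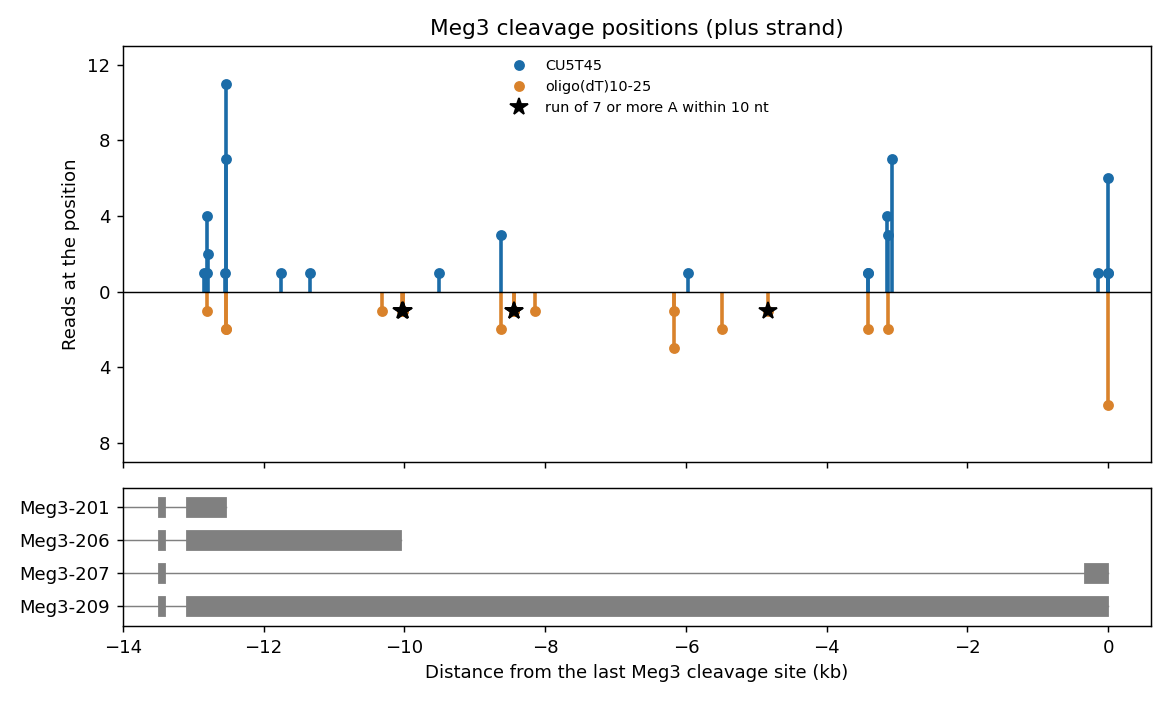
Reads at each Meg3 position against its distance from the last Meg3 site in kb, with CU5T45 upward and oligo(dT)10-25 downward; stars mark positions with a run of 7 or more A within 10 nt, and grey boxes are exons of 4 annotated transcripts placed by distance. The CU5T45 reads stand highest at the end of Meg3-201, with 11 reads at 1 position, and every star belongs to oligo(dT)10-25; the last site was not searched after the cut.

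A group of Meg3 sites about 3 kb before the end matched no annotated transcript end. The cluster from 110806796 to 110806809 had 7 CU5T45 and 2 oligo(dT)10-25 reads. Its first position lies 3139 nt before the last site, with an AATAAA that begins 20 nt before the cut, and had 4 and 0 reads. The position 110806860, 3075 nt before the last site, had 7 CU5T45 reads and 0 oligo(dT)10-25 reads and has no such signal. The lower limit of its ratio is 0.745, so at this depth the 0 is within counting error. A pair of positions at 110806517 and 110806518 had 2 reads with each oligo.

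The cluster at 110797129 to 110797145, which lies in an exon of Meg3-201, had 7 CU5T45 reads and 1 oligo(dT)10-25 read. The site 110801302, 8633 nt before the end, had 3 and 2 reads. The cluster of 110803768 and 110803772, about 6 kb before the end, had 0 CU5T45 and 4 oligo(dT)10-25 reads. The upper limit of its ratio was 0.783, which makes it the only one of the 9 clusters whose interval did not include 1. It is 1 of 9 intervals, with no adjustment for their number.

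**Figure D3:**
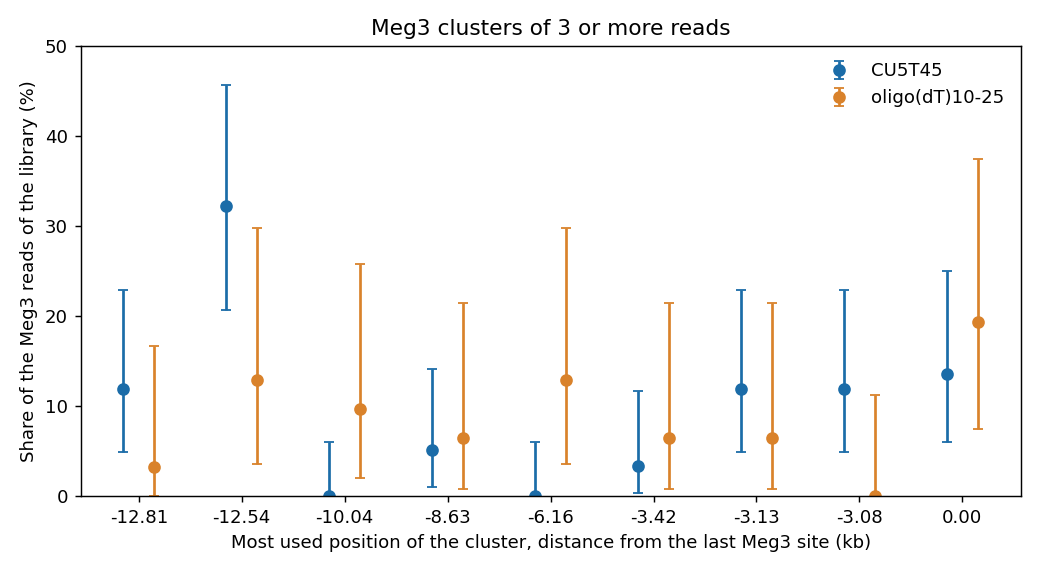
Share of the Meg3 reads of each library in each of the 9 clusters of 3 or more reads, in percent, ordered by distance from the last site in kb; CU5T45 stands left of oligo(dT)10-25 and bars are exact 95% intervals. The cluster at the end of Meg3-201 holds 32.2% and 12.9% of reads (14.3% of CU5T45 positions), and the last site 13.6% and 19.4%.

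Most CU5T45 reads of Meg3 lay in clusters that both libraries held. With oligo(dT)10-25 it was 17 of 31 reads, which cannot be told from an even split. Of the 20 clusters, 6 were seen with both oligos, 7 with CU5T45 alone and 7 with oligo(dT)10-25 alone. A single read made up 9 of the 20 clusters, and such a cluster cannot be seen with both oligos. The split of clusters thus depends on depth, and it was not set against that of other clusters in the series. The shared clusters held 78.0% of the CU5T45 reads (65.3 to 87.7; 46 of 59) and 54.8% of the oligo(dT)10-25 reads (36.0 to 72.7; 17 of 31). These intervals overlap. Within 10 nt of an annotated Meg3 transcript end lay 45.8% of the CU5T45 reads (32.7 to 59.2; 27 of 59) and 35.5% of the oligo(dT)10-25 reads (19.2 to 54.6; 11 of 31). The last site was set equal to the annotated end, so the 8 CU5T45 and 6 oligo(dT)10-25 reads of its cluster match by construction. Without positions within 10 nt of a run of 7 or more A, the oligo(dT)10-25 share was 32.3% (16.7 to 51.4).

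The second question is whether either oligo captured A-rich stretches inside the RNA, which the design of CU5T45 is meant to avoid. The 3 positions at the annotated end, with 8 CU5T45 and 6 oligo(dT)10-25 reads, were left out, because the transcripts end there and the bases after the cut are not known. A run counted as within 10 nt if it touched the 10 bases up to and including the position or the 10 bases after it. Among the rest, positions beside a run of 7 or more A by that measure were found with oligo(dT)10-25 alone. None of the 51 CU5T45 reads lay within 10 nt of such a run (interval 0 to 6.98%; 3 reads would be a share of 5.88%). With oligo(dT)10-25 it was 6 of 25 reads, or 24% (9.36 to 45.1), at 6 positions of 1 read each, and the intervals of the libraries did not overlap. Such positions make up 1.45% of the 13028 places in the exon that were searched. This property was looked at after the data were seen, so the difference is a description of 2 libraries. The CU5T45 count of 0, and with it the gap between the intervals, depends on the limit of 10 bases. At 110806517, with 1 CU5T45 read, a run of 8 A ends just before them. When runs up to 20 nt away were counted, the shares were 3.92% with CU5T45 (0.478 to 13.5; 2 of 51) and 32% with oligo(dT)10-25 (14.9 to 53.5; 8 of 25). With the reads of the last site counted as free of a run, these were 3.45% (0.420 to 11.9) and 25.8% (11.9 to 44.6), with intervals that overlap slightly.

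The 6 positions lay at 3 places. Around 110799897 to 110799922 there were 3 oligo(dT)10-25 reads beside runs of 10 and 7 A, 10013 to 10038 nt before the end. The first of these positions is 6 nt past the annotated end of the transcript Meg3-206. At 110801488 and 110801491 there were 2 reads 1 and 4 nt after a run of 15 A, and at 110805102 there was 1 read at the end of a run of 13 A. Some of these runs follow an ATT, and ATTAAA overlaps them there, so that motif is no separate feature of these positions. The other Meg3 positions with known sequence on both sides had no run longer than 3 A within 10 nt, by the same measure, in either library. At that distance the choice of 7 as the shortest run thus made no difference down to a run of 4. Without the 6 positions, Meg3 had 59 CU5T45 and 25 oligo(dT)10-25 reads and a ratio of 1.22 (0.752 to 2.03).

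**Figure D4:**
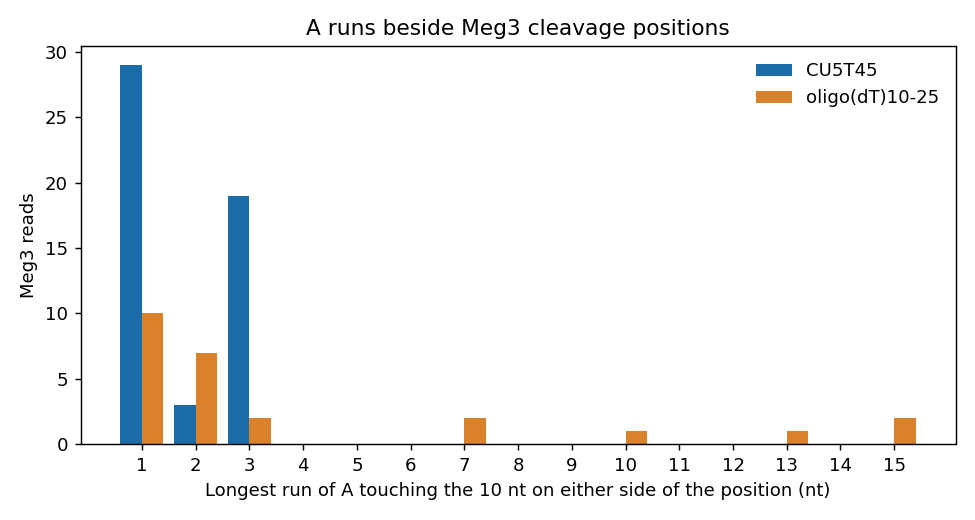
Meg3 reads by the length in nt of the longest run of A that touches the 10 nt on either side of the position, CU5T45 left of oligo(dT)10-25. The 3 positions at the annotated end are left out; all 51 CU5T45 reads shown lie at runs of 3 or fewer, while 6 of 25 oligo(dT)10-25 reads lie at runs of 7 to 15.

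An AATAAA stood in the 40 bases before the cut for 24.1% of the CU5T45 reads (13.9 to 37.2; 14 of 58) and 25.8% of the oligo(dT)10-25 reads (11.9 to 44.6; 8 of 31). It does so at 2.03% of the searched exon places, but these leave out the annotated end, which the read shares include. The reads lay at few sites, 4 of 20 positions with CU5T45 and 2 of 18 with oligo(dT)10-25. The last site alone had 6 reads with each oligo, and its AATAAA comes with setting it equal to the annotated end. The intervals of the libraries overlap. Only the transcribed strand was searched, and a match describes letters and not a working signal.

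Mirg reads lay mostly at the annotated end of the gene. The site at 110987667 had all 5 CU5T45 reads of the window and 1 of the 2 oligo(dT)10-25 reads. An AATAAA begins 25 nt before the cut. The other oligo(dT)10-25 read, at 110979728, lay 16 nt from the annotated end of the transcript Mirg-201 and outside the annotated exons. No Rian cluster reached 3 reads. Its 6 reads lay at 4 positions, with 2 CU5T45 reads at 110874270, 1 read of each oligo at 110888957, 1 CU5T45 read at 110845910 and 1 oligo(dT)10-25 read at 110866243. The nearest annotated transcript end was 212 nt away or more. The positions 110874270 and 110888957 fell in annotated exons by distance, and the other 2 did not. Neither of the 2 exonic ones lay beside a run of more than 3 A.

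Clusters with the same counts as the largest Meg3 and Mirg clusters were common elsewhere in the series. Likeness was the distance over 3 values, log2(CPM + 1) with CU5T45, with oligo(dT)10-25 and of CLIP alignments within 100 nt. For the largest Meg3 cluster, 28 nuclear clusters were at distance 0, with 19 and 4 reads and no CLIP alignment; the first 2 in genome order are on the minus strand of chromosome 1 at 41767843 and 136194951. For the Mirg site 416 clusters were at distance 0, the first 2 being at 4934176 on the plus strand and 7164509 on the minus strand of chromosome 1. For the Rian position 110874270, which tied with 110888957 at 2 reads, 2174 clusters shared the smallest distance, 0.16, beginning with 9566425 and 9566603 on the plus strand of chromosome 1. Only clusters of 3 or more reads were searched, so none could equal the 2 reads of Rian, and these 2 had 3 CU5T45 reads and 0 oligo(dT)10-25 reads. At these counts likeness carries no more than the level.

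The last question is whether CstF64 contacted these RNAs in C2C12 cells. No alignment of either replicate lay in any of the 3 windows, on the plus or the minus strand. Up to 3 alignments remain possible in each window, or 2.72 per 1000000 alignments of replicate 1 and 2.22 per 1000000 of replicate 2. The empty stretch reached from 110657172 to 111044589, or 387 kb over both strands, and held 136 3'READS reads, 133 of them on the plus strand. The nearest alignment lay 122 kb before the Meg3 window on one side and 54.6 kb after the Mirg window on the other. The share of alignments near a cleavage cluster therefore has no value for these genes.

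An empty window is common in these files. Of tiles as long as the Meg3 window, on either strand, 70% held no CLIP alignment (115346 of 164876). Among tiles with between 0.5 and 2 times the reads of Meg3 it was 22.4% (1179 of 5262), so Meg3 shared its 0 with a minority of like tiles. For Rian the same shares were 60.8% and 45.6%, and for Mirg 75.4% and 47.9%. Of the 10 clusters of Meg3 and Mirg with 3 or more reads, 0 had a CLIP alignment within 100 nt, against 39.6% of all nuclear clusters of 3 or more reads and 33.7% of those with fewer than 30. The 10 clusters lie in 1 empty stretch and are not independent of each other. The 3'READS libraries come from a mix of cell lines and the CLIP from C2C12 cells, whose RNA was not measured here. Less Meg3 RNA in those cells and less crosslinking of the RNA cannot be told apart. Whether the alignments analysed here are complete over this stretch is not known either.

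**Figure D5:**
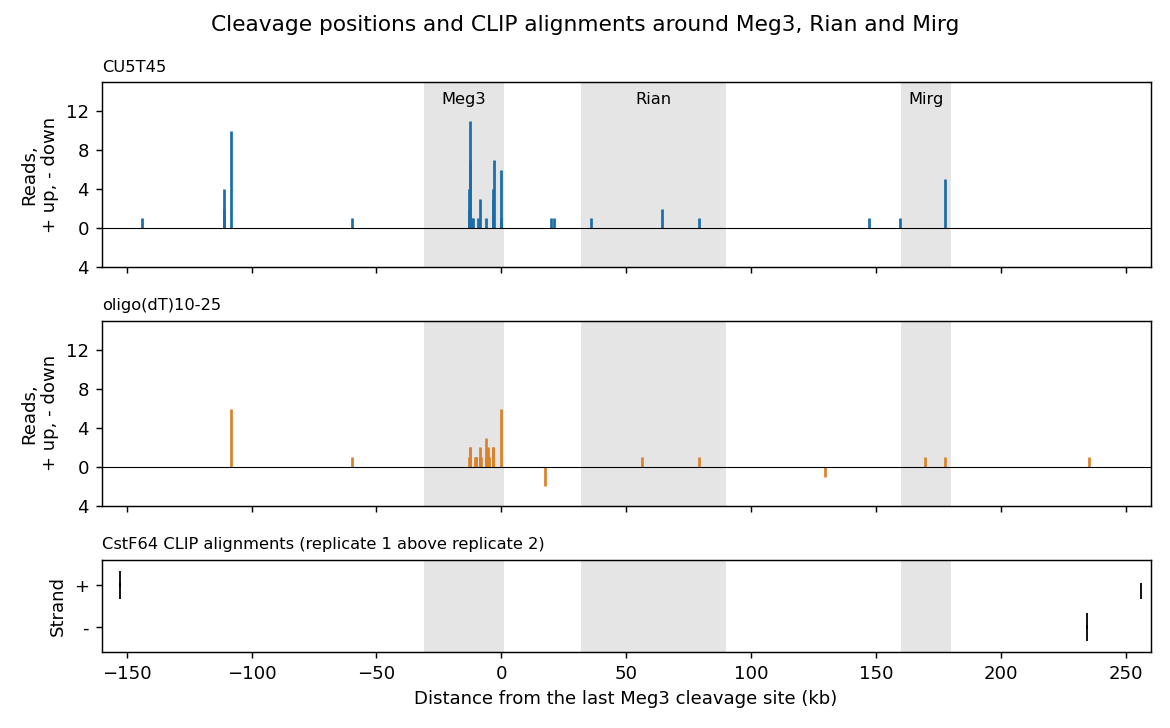
Reads with CU5T45, reads with oligo(dT)10-25 and CstF64 alignments by distance from the last Meg3 site in kb, plus strand upward and minus strand downward; the windows of Meg3, Rian and Mirg are shaded and ticks in the lowest panel mark CLIP alignments, replicate 1 above replicate 2. The shaded windows hold 59, 4 and 5 CU5T45 reads and no CLIP alignment.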

How the data were processed

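The deposited read counts, the only unit used, are whole numbers per cleavage position (3'READS) or per distinct alignment (CLIP), with no normalization by the authors stated in the labels. Per the labels' protocols, 3'READS libraries had 12 PCR cycles and 72 nt reads. The submitters' processing notes name mm9, Bowtie and Novoalign; the read filters, including any on untemplated A, are among what is not stated and can change the counts beside A runs. The first base may be numbered 0 or 1, which shifts each position by at most 1 nt.

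Members were set by window and midpoint. Clusters chain positions at most 24 nt apart. Ratios are of shares of library reads, with exact conditional binomial intervals. They were tested on data simulated from clusters of 30 or more reads, a count that no cluster of these genes reached. Shares have Clopper-Pearson and levels exact Poisson intervals. No p-value was computed. Of CLIP alignments in replicate 1, 80.7% were also in replicate 2, and their counts at 11784 clusters gave a chi-square per degree of freedom of 0.218, below sampling noise, so the replicates counted as 1 sample. The labels do not say whether they are separate cultures.

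Sequence and exons come from GENCODE M21 (GRCm38) transcripts, read by distance from the Meg3 3′ end, which was set equal to the most used position of the last Meg3 cluster. Named sites are, per window, the 6 clusters with most reads among those of 3 or more; other positions, the motifs and the A runs were chosen after their values were seen. Members and lists were chosen with earlier results of these data known. MicroRNA sequences were not printed because no read bore on them, and the sequence of the largest Meg3 cluster is not reported here. Intervals used scipy 1.17.1, tables pandas 2.3.3 and numpy 2.4.6, and plots matplotlib 3.10.9, under Python 3.11.15.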

Additional observations from a re-analysis of the deposited data

How the results depend on the processing

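The share ratios of Meg3, Rian and Mirg stayed within their own intervals under each alternative that could be run: counting each position in place of its reads, drawing CU5T45 reads down to the oligo(dT)10-25 total, extending the windows by 5 kb, leaving mitochondrial reads out of the totals, dividing by the median ratio, leaving out the largest cluster, and, for Meg3 alone, keeping clusters of 10 or more reads or leaving out positions beside A runs. Meg3 ran from 0.766 without its largest cluster to 1.40 with clusters of 10 or more reads. Mirg was at 0.383 with each position counted, against 1.29 with reads, and at 1.55 in the extended window; Rian was at 0.517 without its largest cluster, against 1.03 with it. For Rian and Mirg no cluster passed 10 reads, and without its largest cluster Mirg had no CU5T45 read, so these values do not exist. The share of Meg3 CU5T45 reads in the largest cluster, 32.2%, was 14.3% with each position counted in place of its reads, since the cluster holds 3 of 21 positions. CLIP counts were 0 by midpoint, by either end, by reads, in the extended windows and without replicate 1 or replicate 2 (lowest and highest 0), so the share of alignments near a cleavage cluster had no value under any setting. The count of clusters past 2-fold was 0 under each alternative, and at 30 reads there was none to call. The alternatives on A runs were added after seeing the data. No paired analysis was possible because replicate numbers exist in the CLIP group alone. Depth limits most statements: Rian and Mirg rest on 6 and 7 reads.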

Other observations

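The protein-coding genes at both ends of the domain were looked at after the data were seen, by distance from the last Meg3 site. Dlk1, which encodes a membrane protein of the Notch ligand type, has its annotated end 108390 nt before that of Meg3. The plus-strand position at exactly that distance, 110701545, had 10 CU5T45 and 6 oligo(dT)10-25 reads, or 1.48 and 1.72 CPM; reads elsewhere in Dlk1 were not counted. Dio3, which encodes the deiodinase that inactivates thyroid hormone, has its annotated end 709371 nt after that of Meg3. Within 10 nt of that distance lay 5 positions, with 10 CU5T45 reads and 1 oligo(dT)10-25 read, or 1.48 and 0.287 CPM. The most used one, 111519305, was 1 nt from the annotated distance. The oligo(dT)10-25 level at Dio3 lies under the 0.861 CPM that remains possible where no read was found. A difference between the oligos at Dio3 was not tested. The last Meg3 cluster, a single end like those of Dlk1 and Dio3, had 1.19 CPM with CU5T45 and 1.72 CPM with oligo(dT)10-25.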
